A study of Homo sapiens with 12 samples.

Results

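The genes described here are the proteasome subunits, their activators and inhibitor, and their dedicated assembly factors, taken as every gene whose symbol is PSMA, PSMB, PSMC, PSMD, PSME, PSMF or PSMG followed by a number. Each was read from the Affymetrix probe set annotated to that symbol alone, and where a gene had several, from the one with the highest mean over the 12 arrays. This gave 42 genes among the 19775 genes with such a probe set, and 41 of the 42 passed the filter on low values (a log2 value above 4 on at least 3 of the 12 arrays), as did 10683 genes in all. The gene under the filter was PSMA8, the testis-type alpha subunit, at 3.13 to 3.24 on all arrays. PSMA6 and PSME2 stood only on probe sets with several symbols, and PSMB11, PSMC5, PSMD7 and PSMD13 had no probe set with their symbol in the annotation, so these 6 were not analysed here.

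The cells were HK-2, a human kidney line immortalised from proximal tubule epithelium, so all arrays share 1 genetic background. They were exposed for 12 h or 48 h to a cadmium compound that the labels call CdCl, or to the control vehicle, in a study of 9 compounds and their kidney toxicity. Each of the 4 groups (control at 12 h, CdCl at 12 h, control at 48 h and CdCl at 48 h) had 3 biological replicates with 1 array each. No label states the dose.

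The proteasome is the barrel-shaped protease that degrades proteins tagged with ubiquitin. Its core is built from rings of alpha subunits, which form the gate, and beta subunits, some of which cut peptide bonds. A regulatory cap with a ring of ATPases and a lid binds the tagged protein, removes the ubiquitin and threads the chain into the core. Cells exposed to interferon can replace the cutting beta subunits with inducible ones, which makes an immunoproteasome, and other activators can take the place of the cap. When degradation falls short, the transcription factor NFE2L1 is known to raise proteasome genes through antioxidant response elements in their promoters.

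Promoter sequences were looked at for motifs known from this control, and those of the inducible beta subunits PSMB8, PSMB9 and PSMB10, of the core chaperone PSMG4 and of the activator PSME4 are shown because the results turn on these genes. The RefSeq tables (GRCh38.p14) held windows for 36 of the 42 genes, 43 windows in all, and the 250 bases before each annotated start were searched on both strands. Each line below ends at the base before an annotated start, reads 5′ to 3′ on the gene's strand, and has motif matches in capitals. In PSMB8 (chr6:32844048-32844147, minus strand, before the second of its annotated starts) the capitals mark a gamma-activated site, a motif of interferon signalling, at position -65. The window before the other start of PSMB8 (chr6:32844680-32844929) held no match of the motifs searched. In PSMB9 (chr6:32854042-32854191, plus strand) the capitals mark an antioxidant response element core on the opposite strand at -148. In PSMB10 (chr16:67936851-67936950, minus strand) and PSMG4 (chr6:3258847-3258946, plus strand) they mark an interferon-stimulated response element at -21 and -33, with the same letters in both genes. In PSME4 (chr2:53970994-53971093, minus strand) they mark an antioxidant response element core on the opposite strand at -34.
PSMB8: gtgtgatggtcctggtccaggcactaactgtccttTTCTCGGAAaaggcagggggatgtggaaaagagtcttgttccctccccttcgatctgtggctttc
PSMB9: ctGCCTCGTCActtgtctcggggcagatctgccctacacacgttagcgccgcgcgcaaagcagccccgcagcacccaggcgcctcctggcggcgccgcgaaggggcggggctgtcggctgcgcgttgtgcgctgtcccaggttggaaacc
PSMB10: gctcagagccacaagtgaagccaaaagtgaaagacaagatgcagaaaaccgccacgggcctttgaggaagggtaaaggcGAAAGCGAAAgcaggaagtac
PSMG4: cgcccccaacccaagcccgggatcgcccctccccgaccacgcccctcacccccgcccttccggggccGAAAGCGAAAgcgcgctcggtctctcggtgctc
PSME4: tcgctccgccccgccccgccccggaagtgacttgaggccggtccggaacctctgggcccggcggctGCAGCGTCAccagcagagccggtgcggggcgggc

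The antioxidant response element core (TGACNNNGC) was in 11 of the 43 windows (25.6%), against 10.9% of the 35116 windows of all genes. The interferon-stimulated response element (GAAANNGAAA) was in 4 of 43 (9.3%), against 3.02% of all windows, and the gamma-activated site (TTCNNNGAA) in 7 of 43 (16.3%), against 6.57%. The CCAAT box (CCAAT) was in 37.2% against 32%, and the heat shock element (TTCNNGAANNTTC or GAANNTTCNNGAA) was in 0 of the 43 windows against 0.441% of all. Matches of different motifs overlapped in 0 places in these windows, and each match is a description of the letters only. The 11 genes with the antioxidant core were PSMA4, PSMB3, PSMB9, PSMD3, PSMD5, PSMD9, PSMD12, PSME1, PSME4, PSMG1 and PSMG2. The letters of the match were TGACTCTGC in PSMA4, TGACTTTGC in PSMB3, TGACTCGGC in PSMD3 and TGACGCTGC in PSMD12.

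Values are log2 signals, so a difference of 1 is a doubling, and changes are CdCl minus control with the standard error of the limma fit. A gene is called higher or lower where its Benjamini-Hochberg adjusted p over the 10683 genes was under 0.05. Over all probe sets the replicates of a group correlated at 0.9965 to 0.9982 and arrays of different groups at 0.9731 to 0.9890. Of the tubular epithelial markers measured, 9 of 10 passed the filter, but of 10 markers of the mature proximal tubule only 3 did, with LRP2, CUBN, AQP1 and SLC34A1 among those that did not. None of 4 leukocyte and 5 endothelial markers passed, and 3 of 6 fibroblast markers did. The spiked-in poly-A RNAs read 7.31 to 7.32 on the CdCl arrays at 12 h and 6.69 to 6.96 on the controls, a difference of 0.47. At 48 h the difference was 0.20, with CdCl replicate 2 at 5.99 beside 6.92 and 6.89. Their part in the results was not tested. Since arrays are scaled alike, a smaller share of a transcript and less RNA per cell cannot be told apart.

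At 12 h 21 of the 27 core and cap genes showed no call. Of the 7 assembly factors with PSM symbols 6 were lower, and 1 activator was more than doubled. Of the 41 genes, 5 were higher (12.2%, against 16.7% of all genes tested), namely PSMA3, PSMC4, PSMD12, PSMD14 and PSME4. Another 11 were lower (26.8%, against 39.7% of all genes tested), namely PSMB8, PSMB10, PSMD3, PSMD4, PSMD5, PSMD9, PSME1 and PSMG1 to PSMG4. Both shares lie below those of all genes. All 3 CdCl arrays lay above all 3 controls in 11 of the 41 (against 19.8% of all genes tested) and below them in 16 (against 46.6%). The median of the 41 changes was -0.06, beside -0.16 over all genes tested. This split depends on the scaling, since with each array centred on its median over the genes tested 13 were higher (31.7%, against 24.4% of all genes) and 7 lower (17.1%, against 26.4%). Over all genes the same centring moved the calls from 1783 higher and 4246 lower to 2611 and 2827.

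At 48 h 13 of the 27 core and cap genes were higher with CdCl than with vehicle and 0 were lower. This count holds for the probe sets used, as other probe sets of PSMA2, PSMA5 and PSMC2 were lower at 48 h. Of the 41 genes, 18 were higher (43.9%, against 26.5% of all genes tested) and 3 were lower (7.32%, against 28.0%), and the median change was 0.13 beside -0.02 over all genes. The 3 lower genes were PSMB8, PSMG1 and PSMG2. The CdCl arrays lay above all controls in 23 of the 41 (against 29.1% of all genes tested) and below them in 4 (against 30.9%). The centring on the genes tested left both counts at 18 and 3. Relative to all genes the 27 core and cap genes stood as high at 12 h as at 48 h, with a median 0.19 and 0.18 above that of all genes, and 25 and 22 of the 27 above it. PSMC4, PSMD12, PSMD14 and PSME4 were higher at both times, PSMB8, PSMG1 and PSMG2 lower at both, and PSMB10, PSMD3 and PSMD9 lower at 12 h and higher at 48 h. Where a count of a class or list is given as 0 or none for CdCl against control, limma's count at an unadjusted p under 0.05 was also 0, except that 1 constitutive beta subunit was then higher at 12 h. Another 11 genes were higher at 48 h without a call at 12 h, 1 was higher and 5 lower at 12 h alone, and 14 had no call at either time. Calls at both times were not counted over all genes, so these joint counts have no background share beside them.

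**Figure D1:**
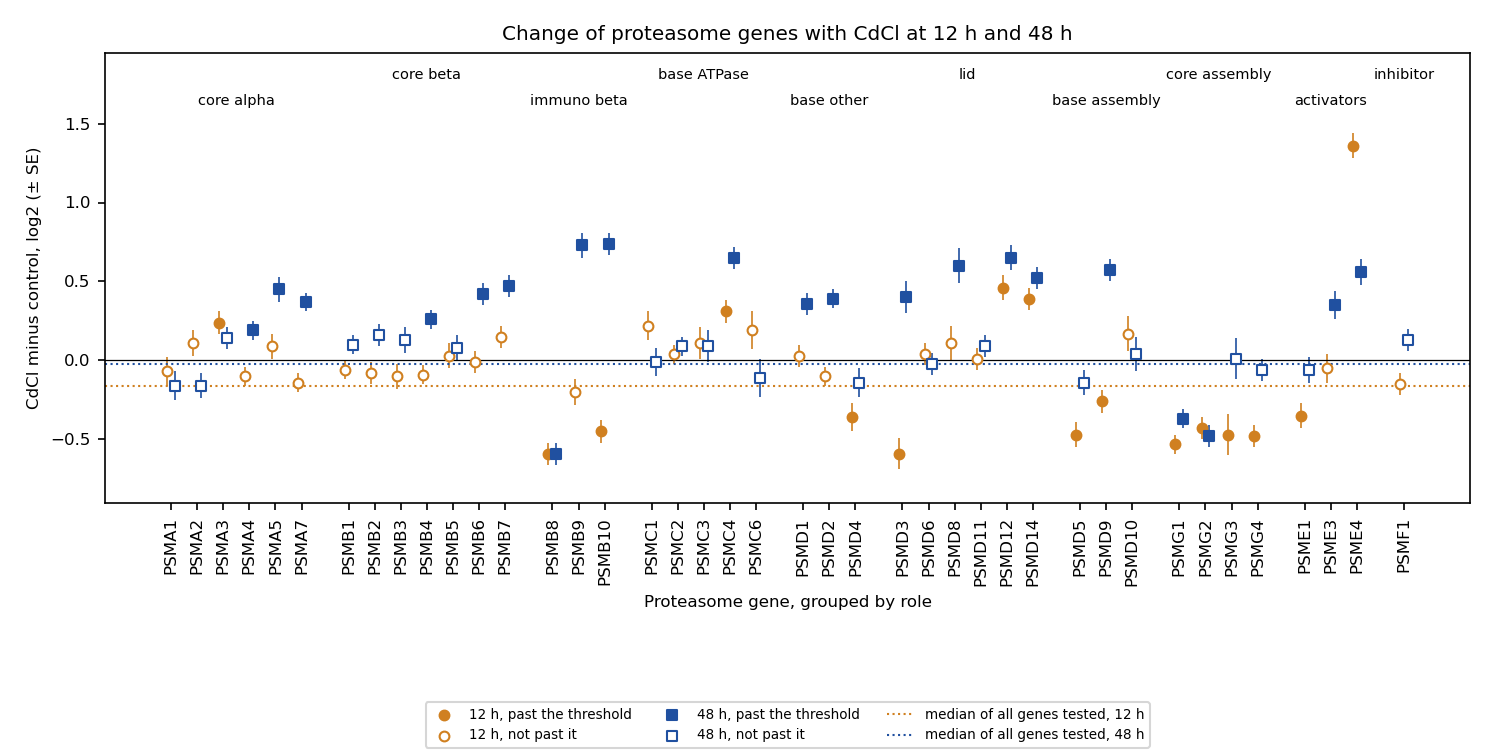
CdCl minus control of each of the 41 genes (log2, points with the SE of the fit) at 12 h (circles) and 48 h (squares), grouped by role, with filled symbols past an adjusted p of 0.05 and dotted lines at the median of all genes tested. Of the 27 core and cap genes 25 lie above the median of all genes at 12 h and 22 at 48 h, and PSMB8, PSMG1 and PSMG2 lie below it at both times, and at 12 h PSME4 stands highest at 1.36.

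The effect of CdCl differed between the times in 19 genes by the test of the difference itself. The 48 h effect was above the 12 h effect in 18 (43.9%, against 27.0% of all genes tested) and below it in 1, PSME4 (13.0% of all genes were below). The median difference was 0.24, beside 0.13 over all genes. With centring on the genes tested 8 were above (19.5%, against 17.8% of all genes, so no more than the background) and 2 below (4.88%, against 18.6%), PSMA2 joining PSME4. The genes that were above in both fits by the largest amounts were PSMB10, PSMD3, PSMB9 and PSMD9.

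**Figure D2:**
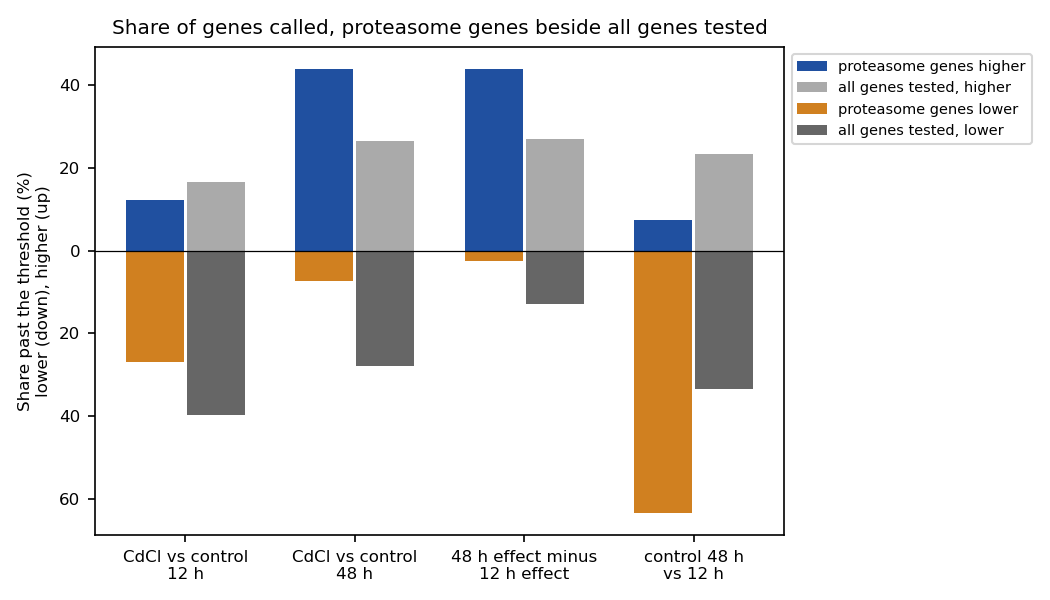
Share of the 41 proteasome genes (coloured) and of all 10683 genes tested (grey) past the threshold in each of 4 comparisons, in percent, drawn up for higher and down for lower. The proteasome genes exceed all genes for higher calls with CdCl at 48 h (43.9% against 26.5%) and for lower calls in the controls between 12 h and 48 h (63.4% against 33.5%).

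Among the alpha subunits, which form the outer rings and the gate, 1 of 6 was higher at 12 h and 3 of 6 at 48 h (16.7% and 26.5% of all genes were higher). On the probe sets used none was lower. After centring on the genes tested, 3 of 6 were higher at each time. PSMA3 changed by 0.24 ± 0.07 at 12 h (adjusted p = 0.010) and had no call at 48 h at 0.14 ± 0.07 (adjusted p = 0.11). PSMA5 read 10.60, 10.49 and 10.63 in the 48 h controls and 10.91, 11.18 and 10.98 with CdCl, a rise of 0.45 ± 0.08 (adjusted p = 3.6e-04). All CdCl arrays of PSMA5 lay above all controls at 48 h, while at 12 h the change was 0.09 ± 0.08. A second PSMA5 probe set went the other way at 48 h, at -0.50 ± 0.12 (adjusted p = 0.0041 over probe sets), so the direction of this gene depends on the probe set.

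PSMA7 read 11.58, 11.53 and 11.49 in the 48 h controls and 11.88, 11.98 and 11.86 with CdCl, a rise of 0.37 ± 0.06 (adjusted p = 3.9e-04), and its second probe set rose by 0.34 ± 0.08. PSMA4 rose by 0.19 ± 0.06 (adjusted p = 0.028), the smallest of the rises called at 48 h. The call of PSMA4 ended without CdCl replicate 1 or 3 or without control replicate 2 or 3 of 48 h (0.16 to 0.17, adjusted p = 0.077 to 0.091), and with each array centred on its median over all probe sets (0.17, adjusted p = 0.055). PSMA1 and PSMA2 each stood at -0.16 at 48 h without a call, though PSMA1 was called lower without CdCl replicate 2 (-0.25, adjusted p = 0.032) or control replicate 2 of 48 h (-0.24, adjusted p = 0.037) and PSMA2 without control replicate 3 of 12 h (adjusted p = 0.047).

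Of the 7 constitutive beta subunits none was called at 12 h (16.7% of all genes were higher and 39.7% lower). Their changes ran from -0.10 to 0.15. At 48 h 3 of the 7 were higher (26.5% of all genes were). The centring on the genes tested gave 1 higher at 12 h and 3 at 48 h. PSMB7, which carries the trypsin-like site, read 11.95, 11.86 and 11.99 in the 48 h controls and 12.35, 12.45 and 12.40 with CdCl, a rise of 0.47 ± 0.07 (adjusted p = 1.1e-04). PSMB6, with the caspase-like site, read 10.54, 10.51 and 10.49 in the controls and 10.89, 11.02 and 10.90 with CdCl, a rise of 0.42 ± 0.07 (adjusted p = 2.2e-04). In both genes the CdCl arrays lay above every 48 h control. PSMB4, a structural subunit, rose by 0.26 ± 0.06 (adjusted p = 0.0039).

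PSMB5, which carries the chymotrypsin-like site and is the main target of proteasome inhibitors, had no call at either time. It read 10.41, 10.24 and 10.47 in the 48 h controls and 10.36, 10.57 and 10.45 with CdCl, and the groups overlapped, with a change of 0.08 ± 0.08 (adjusted p = 0.42). The structural subunits PSMB1, PSMB2 and PSMB3 stood at 0.10, 0.16 and 0.13 at 48 h, also without a call, and PSMB2 was called without control replicate 3 of 48 h (0.20, adjusted p = 0.039).

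The 3 inducible beta subunits took different courses, and each replaces one of the cutting subunits above. PSMB8, which takes the place of PSMB5, was lower at both times. It read 8.87, 8.69 and 8.77 in the 12 h controls and 8.10, 8.26 and 8.21 with CdCl, and 9.29, 9.23 and 9.41 in the 48 h controls and 8.72, 8.73 and 8.71 with CdCl. The CdCl arrays lay below the controls of their own time throughout, and the change was -0.59 ± 0.07 at 12 h (adjusted p = 4.2e-05) and -0.59 ± 0.07 at 48 h (adjusted p = 3.4e-05). The vehicle level of PSMB8 rose by 0.53 ± 0.07 between the times, so CdCl cells at 48 h lay near the level of the 12 h controls. PSMB8-AS1, a separate gene named as antisense to PSMB8 and not counted among the 41, fell from 4.65, 4.78 and 4.72 in the 12 h controls to 3.09, 3.25 and 3.27 (adjusted p = 5.6e-06), and at 48 h from 4.57, 4.88 and 4.14 to 3.44, 3.54 and 3.40 (adjusted p = 7.1e-05), the CdCl arrays lying under the filter level of 4.

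PSMB10, which takes the place of PSMB7, was lower at 12 h and higher at 48 h. It read 7.96, 7.82 and 7.70 in the 12 h controls and 7.38, 7.39 and 7.37 with CdCl, and 7.61, 7.70 and 7.70 in the 48 h controls and 8.43, 8.41 and 8.39 with CdCl. Neither pair of groups overlapped. The change was -0.45 ± 0.07 at 12 h (adjusted p = 2.2e-04) and 0.74 ± 0.07 at 48 h (adjusted p = 4.0e-06), a 1.67-fold rise, and the difference between the times was 1.19 ± 0.10 (adjusted p = 1.0e-05), the largest among the 41 genes.

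PSMB9, which takes the place of PSMB6, rose at 48 h. It read 7.00, 7.08 and 7.03 in the 48 h controls and 7.81, 7.77 and 7.72 with CdCl, a rise of 0.73 ± 0.08 (adjusted p = 2.2e-05) with all CdCl arrays above all controls. At 12 h the controls read 7.42, 7.08 and 7.37 and the CdCl arrays 7.08, 7.06 and 7.14, which overlap, and the change of -0.20 ± 0.08 had no call (adjusted p = 0.068). Without control replicate 2 of 12 h it was -0.30 (adjusted p = 0.0039).

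Set against the subunit that each replaces, as a description with no test, the change of PSMB8 minus that of PSMB5 was -0.62 at 12 h and -0.68 at 48 h. The change of PSMB10 minus that of PSMB7 was -0.60 at 12 h and 0.27 at 48 h. The change of PSMB9 minus that of PSMB6 was 0.30 at 48 h, and at 12 h it was -0.18, where the arrays of the groups overlapped. In the others the arrays did not overlap, and the sign at 48 h was positive for PSMB9 and PSMB10 and negative for PSMB8.

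**Figure D3:**
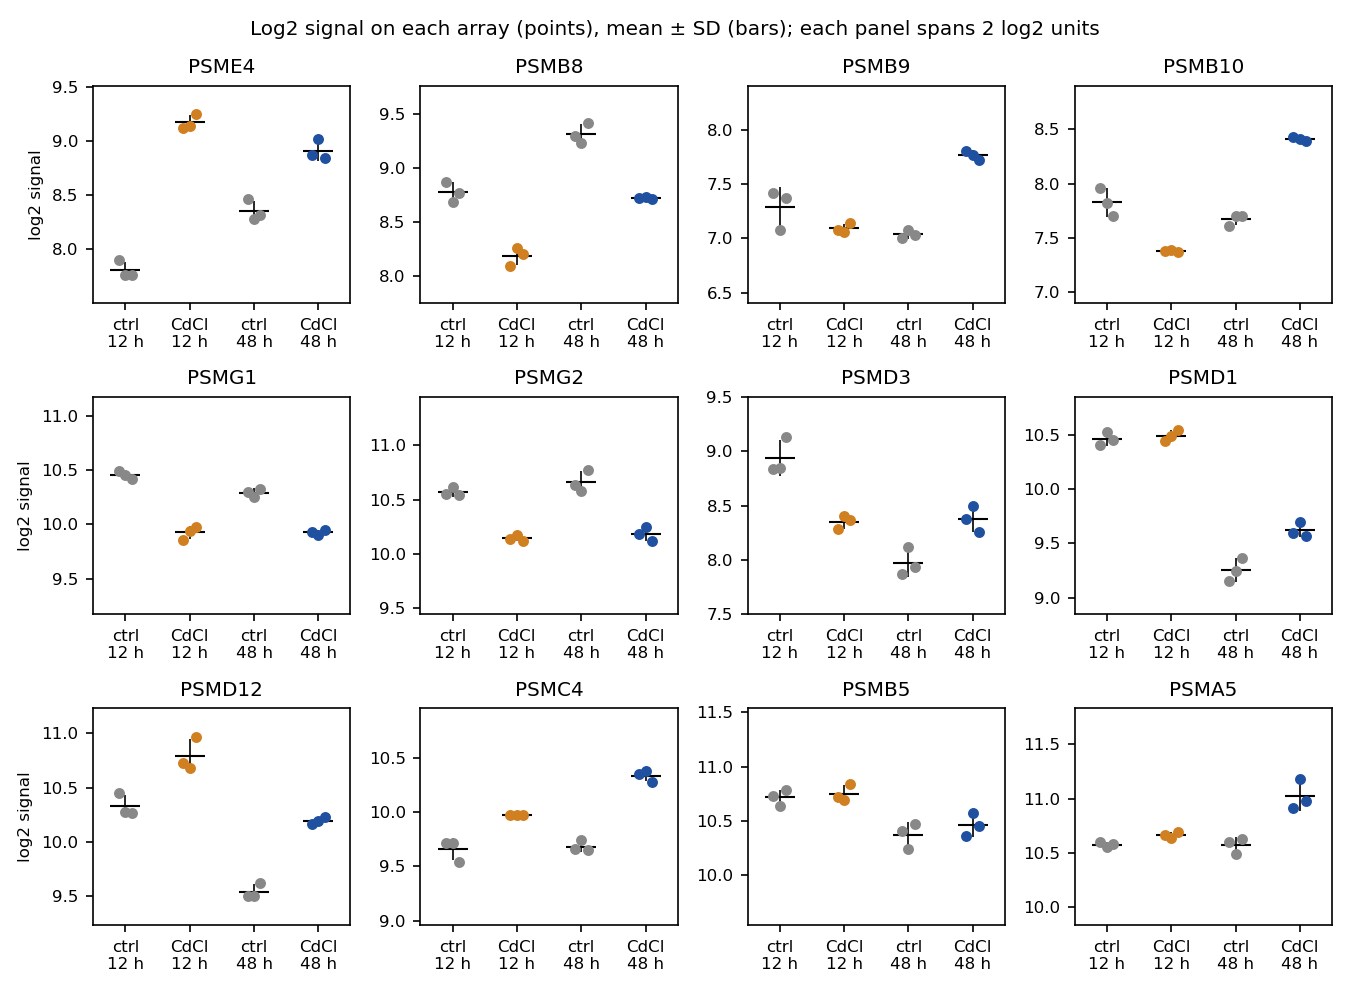
Log2 signal of 12 proteasome genes on each of the 12 arrays (points) with the group mean and SD of 3 arrays (bars), in each panel from left to right control and CdCl at 12 h, then control and CdCl at 48 h. PSMB8 lies below its controls at both times (8.10 to 8.26 against 8.69 to 8.87 at 12 h), PSMB9 and PSMB10 lie above theirs at 48 h, and PSME4 lies above at both.

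In the cap base, the ATPases unfold the substrate and open the gate, and 1 of the 5 measured was called. The call was higher at 12 h and at 48 h, where 16.7% and 26.5% of all genes were higher. PSMC4 read 9.72, 9.72 and 9.54 in the 12 h controls and 9.97 in all 3 CdCl arrays, and 9.66, 9.74 and 9.65 in the 48 h controls and 10.35, 10.38 and 10.28 with CdCl. Its CdCl arrays lay above the controls at both times, with changes of 0.31 ± 0.07 (adjusted p = 0.0020) and 0.65 ± 0.07 (adjusted p = 7.4e-06). The other ATPases, PSMC1, PSMC2, PSMC3 and PSMC6, lay between 0.04 and 0.22 at 12 h and between -0.11 and 0.09 at 48 h without a call. The -0.11 was that of PSMC6 and rests on CdCl replicate 2. PSMC6 read 11.16, 11.33 and 11.13 in the 48 h controls and 11.26, 10.75 and 11.29 with CdCl. PSMC1 was called higher at 12 h without control replicate 1 (0.27, adjusted p = 0.046) or 3 of 12 h (0.28, adjusted p = 0.032), and PSMC6 without CdCl replicate 2 of 48 h (0.19, adjusted p = 0.035). With centring on the genes tested all 5 were called higher at 12 h (median 0.34), and 1 of 5 at 48 h as before. At 48 h the used probe set of PSMC2 stood at 0.09 and its other 2 were lower, at -0.63 ± 0.11 and -0.72 ± 0.24.

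The scaffold subunits of the base, PSMD1 and PSMD2, dock ubiquitin receptors and shuttle proteins, and both were higher at 48 h. PSMD2 read 10.55, 10.58 and 10.65 in the 48 h controls and 10.98, 11.01 and 10.95 with CdCl, a rise of 0.39 ± 0.06 (adjusted p = 1.5e-04). PSMD1 read 9.15, 9.25 and 9.37 in the controls and 9.60, 9.70 and 9.57 with CdCl, a rise of 0.36 ± 0.07 (adjusted p = 0.0014). All CdCl arrays of both genes lay above the 48 h controls and below those of 12 h. PSMD4, a ubiquitin receptor, was lower at 12 h, at -0.36 ± 0.09 (adjusted p = 0.0046), a call that ended with centring on the genes tested (-0.21, adjusted p = 0.091), and had none at 48 h.

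In the lid, which removes the ubiquitin chain, 2 of 6 genes were higher and 1 lower at 12 h, and 4 were higher at 48 h. Of all genes 16.7% were higher and 39.7% lower at 12 h, and 26.5% were higher at 48 h. PSMD14, the enzyme that cuts the chain off, read 12.02, 11.96 and 12.01 in the 12 h controls and 12.37, 12.37 and 12.41 with CdCl, a rise of 0.39 ± 0.07 (adjusted p = 4.7e-04). At 48 h it read 11.34, 11.28 and 11.47 in the controls and 11.80, 11.95 and 11.90 with CdCl, a rise of 0.52 ± 0.07 (adjusted p = 4.8e-05). The groups did not overlap at either time.

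PSMD12, a scaffold of the lid, read 10.45, 10.28 and 10.27 in the 12 h controls and 10.73, 10.68 and 10.97 with CdCl, a rise of 0.46 ± 0.08 (adjusted p = 7.1e-04). At 48 h it read 9.50, 9.50 and 9.62 in the controls and 10.17, 10.19 and 10.23 with CdCl, a rise of 0.65 ± 0.08 (adjusted p = 5.2e-05). A second PSMD12 probe set rose at 12 h (0.49 ± 0.09) and stood at 0.16 ± 0.09 at 48 h (adjusted p = 0.16 over probe sets), so the 48 h rise was seen on 1 of 2 probe sets.

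PSMD3, another lid scaffold, was lower at 12 h and higher at 48 h. It read 8.84, 8.85 and 9.13 in the 12 h controls and 8.28, 8.40 and 8.37 with CdCl, a change of -0.59 ± 0.10 (adjusted p = 4.0e-04). At 48 h it read 7.87, 8.12 and 7.93 in the controls and 8.38, 8.50 and 8.26 with CdCl, a rise of 0.40 ± 0.10 (adjusted p = 0.0051). The CdCl level was almost the same at both times, and the control level was not. PSMD8, which joins last and closes the lid, rose by 0.60 ± 0.11 at 48 h (adjusted p = 5.9e-04), from 10.90, 10.76 and 10.96 to 11.37, 11.72 and 11.32. PSMD6 and PSMD11, scaffold subunits, stood at -0.02 and 0.09 at 48 h without a call.

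Of the 7 assembly factors with PSM symbols 6 were lower and 0 higher at 12 h (39.7% of all genes were lower). Their median was -0.47, beside -0.45 for the 3 inducible beta subunits and -0.16 over all genes. After centring on the genes tested, 4 of the 7 were lower and 1 higher. The assembly factors POMP and PAAF1, with other symbols, had no call at 12 h (-0.02 ± 0.07 and 0.04 ± 0.09). Both were higher at 48 h, by 0.41 ± 0.07 and 0.67 ± 0.09. PSMG1 and PSMG2 form the dimer that builds the alpha ring. PSMG1 read 10.49, 10.46 and 10.42 in the 12 h controls and 9.86, 9.94 and 9.98 with CdCl, and 10.30, 10.25 and 10.33 in the 48 h controls and 9.93, 9.90 and 9.95 with CdCl. Its change was -0.53 ± 0.06 (adjusted p = 1.8e-05) and -0.37 ± 0.06 (adjusted p = 2.7e-04). PSMG2 read 10.55, 10.62 and 10.54 in the 12 h controls and 10.14, 10.17 and 10.12 with CdCl, and 10.63, 10.58 and 10.77 in the 48 h controls and 10.18, 10.25 and 10.12 with CdCl. Its change was -0.43 ± 0.07 (adjusted p = 2.3e-04) and -0.48 ± 0.07 (adjusted p = 9.9e-05). In both genes all CdCl arrays lay below all controls at each time, while none of the 13 core subunits was lower at either time on the probe set used. Other probe sets of the core subunits PSMA2 and PSMA5 were lower at 48 h (-0.54 ± 0.08 and -0.50 ± 0.12).

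PSMG3 and PSMG4, which act as the second pair of alpha ring chaperones, were lower at 12 h and had no call at 48 h. PSMG4 read 9.78, 9.70 and 9.73 in the 12 h controls and 9.20, 9.25 and 9.33 with CdCl, a change of -0.48 ± 0.07 (adjusted p = 1.0e-04), and stood at -0.06 at 48 h. As a mean over all its probe sets, most of them near background, the 12 h change of PSMG4 was -0.10 (adjusted p = 0.051). PSMG3 read 8.56, 8.47 and 8.31 in the 12 h controls and 8.17, 8.08 and 7.68 with CdCl, a change of -0.47 ± 0.13 (adjusted p = 0.0078), and stood at 0.01 at 48 h. With centring on the genes tested the call of PSMG3 ended (-0.32, adjusted p = 0.055) and the other 3 core chaperones were still called lower.

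Of the chaperones that build the ATPase ring, PSMD5 and PSMD9 were lower at 12 h, and PSMD10, also known as gankyrin, stood at 0.17 ± 0.11 without a call (0.29 without control replicate 1 of 12 h, adjusted p = 0.024). PSMD5 fell by 0.47 on the log2 scale at 12 h (adjusted p = 3.5e-04) and had no call at 48 h. PSMD9 read 10.02, 9.87 and 9.88 in the 12 h controls and 9.60, 9.62 and 9.77 with CdCl, a change of -0.26 ± 0.07 (adjusted p = 0.0087). At 48 h PSMD9 read 9.79, 9.79 and 9.89 in the controls and 10.37, 10.45 and 10.35 with CdCl, a rise of 0.57 ± 0.07 (adjusted p = 4.3e-05). The arrays did not overlap at either time. The 12 h call of PSMD9 ended with centring on the genes tested (-0.11, adjusted p = 0.25) and as a mean over its probe sets (-0.13, adjusted p = 0.087). PSMD10 was called higher at 12 h with the same centring (0.32, adjusted p = 0.024).

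Among the activators, PSME4 (PA200), a large single-chain cap that works without ATP and is known for degrading histones, had the largest change of the 41 genes. It read 7.90, 7.76 and 7.76 in the 12 h controls and 9.12, 9.14 and 9.25 with CdCl, and 8.46, 8.28 and 8.32 in the 48 h controls and 8.87, 9.02 and 8.84 with CdCl. The CdCl arrays lay above the controls at both times, and the distance was larger at 12 h. The change was 1.36 ± 0.08 at 12 h, a 2.57-fold rise (adjusted p = 1.1e-07), and 0.56 ± 0.08 at 48 h (adjusted p = 9.7e-05). The difference between the times was -0.81 ± 0.11 (adjusted p = 2.3e-04), and the controls themselves rose by 0.55 ± 0.08 between 12 h and 48 h. The other probe sets of PSME4 were higher at both times as well, at 0.75 ± 0.08 and 1.74 ± 0.24 at 12 h and at 0.96 ± 0.08 and 0.67 ± 0.24 at 48 h, so the rise was seen on all 3 probe sets and was larger at 12 h on 2 of them.

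PSME1 is a subunit of the interferon-responsive PA28 ring and PSME3 forms the nuclear PA28 gamma ring. PSME1 read 10.76, 10.69 and 10.76 in the 12 h controls and 10.46, 10.40 and 10.29 with CdCl, a change of -0.35 ± 0.08 (adjusted p = 0.0026), which had no call with centring on the genes tested (-0.21, adjusted p = 0.072) or at 48 h. PSME3 read 9.02, 9.19 and 9.18 in the 48 h controls and 9.50, 9.58 and 9.36 with CdCl, a rise of 0.35 ± 0.09 (adjusted p = 0.0046), and 2 of its other probe sets rose by 0.76 ± 0.11 and 0.67 ± 0.10, while another was lower at 12 h (-0.48 ± 0.16). PSMF1 (PI31), which binds and can inhibit the core, had no call at either time (-0.15 ± 0.07 and 0.13 ± 0.07), but a second PSMF1 probe set was higher at 48 h (0.64 ± 0.14, adjusted p = 0.0035 over probe sets).

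The vehicle cells changed between the times, and this bears on the level behind each 48 h rise. Between 12 h and 48 h of vehicle, 26 of the 41 genes were lower (63.4%, against 33.5% of all genes tested) and 3 were higher, PSMB8, PSME4 and PSMF1 (7.32%, against 23.4%). All 3 arrays of 48 h lay below those of 12 h in 26 genes (against 37.1% of all genes tested) and above them in 3 (against 27.4%). The median change was -0.26, beside -0.06 over all genes, and with centring on the genes tested 18 were lower (43.9%, against 28.1% of all genes) and 4 higher, PSMD10 (0.29) being the fourth. Of the 13 core subunits 12 were lower, and of the 14 cap subunits 10. PSMD1 fell by 1.21 on the log2 scale (adjusted p = 1.0e-07), PSMD3 by 0.97, PSMD2 by 0.86, PSMD11 by 0.80 and PSMD12 by 0.79, and PSMA5 stood at 0.00.

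This comparison and that of CdCl with control at 48 h share the 48 h controls, so the levels are given side by side with the 12 h controls and without a test. In 9 of the 18 genes higher with CdCl at 48 h the CdCl mean at 48 h lay below the 12 h control mean, and in 8 of these all 3 arrays did (40.3% of all genes tested lay so). These 8 were PSMA4, PSMA7, PSMB6, PSMD1, PSMD2, PSMD3, PSMD12 and PSMD14. In the other 9 the CdCl mean lay above the 12 h control, in 8 with all 3 arrays (32.5% of all genes tested lay so), and these were PSMA5, PSMB7, PSMB9, PSMB10, PSMC4, PSMD8, PSMD9 and PSME4. The shares of 40.3% and 32.5% are over all genes tested, not over genes also called higher at 48 h. They are therefore not for a like set, and 8 of 18 lies near the first. PSMD1 with CdCl stood at -0.84 from the 12 h control and at 0.36 from the control of its own time. PSMC4, in contrast, stood 0.67 above the 12 h control and PSME4 1.10 above it.

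**Figure D4:**
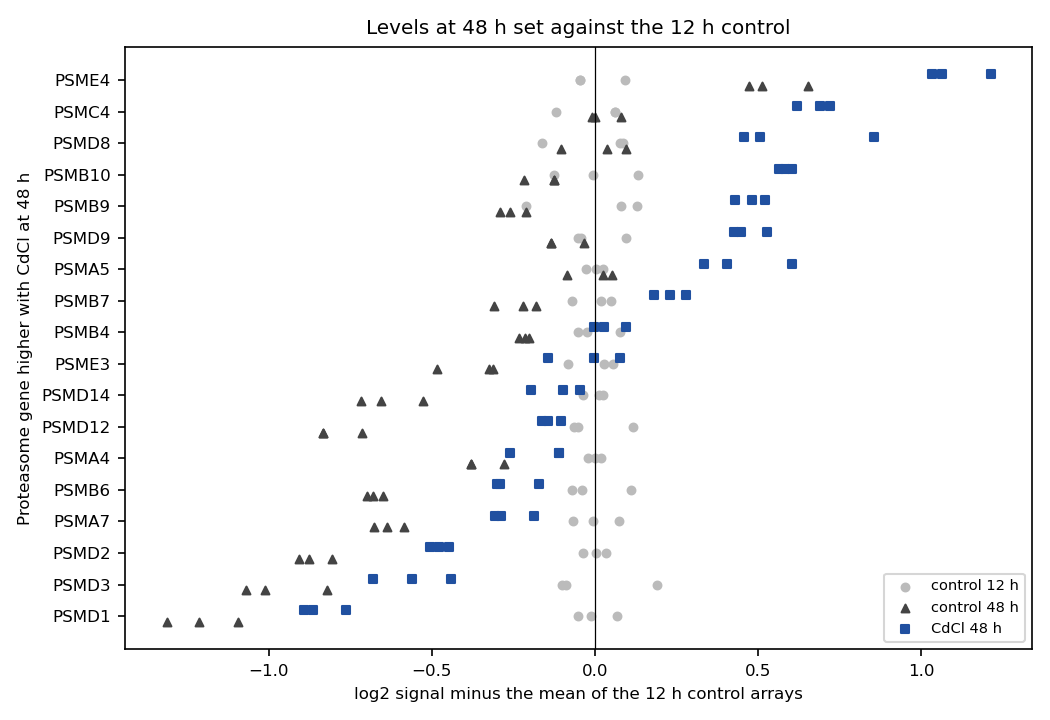
The 18 genes higher with CdCl at 48 h, each with its control arrays at 12 h (circles), control arrays at 48 h (triangles) and CdCl arrays at 48 h (squares), as log2 signal minus the mean of the 12 h controls. In the lower rows, such as PSMD1 and PSMD2, the 48 h controls lie far to the left and the CdCl arrays between them and 0, while in the upper rows, such as PSME4 and PSMC4, the CdCl arrays lie to the right of 0.

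Another 39 probe sets carried these symbols, of which 25 passed the filter, over 16 genes. Their call matched that of the probe set used in 20 of 25 at 12 h and in 16 of 25 at 48 h, and 1, of PSMA5 at 48 h, was opposite. A second probe set of PSMA2 was lower at 48 h (-0.54 ± 0.08), where the one used had no call, and second probe sets of PSMB2 and PSMD1 were higher at 12 h (0.59 ± 0.12 and 0.27 ± 0.07) where the ones used had none. At 48 h the second PSMD1 probe set stood at 0.17 ± 0.07 without a call (adjusted p = 0.063 over probe sets).

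By promoter letters, 6 of the 11 genes with an antioxidant response element core were higher and 2 lower at 48 h (median 0.19), beside 9 higher and 1 lower of the 24 tested genes with a window and no match (median 0.11). At 12 h 2 of the 11 were higher and 6 lower (median -0.26), beside 3 and 3 of the 24 (median 0.04). Of all genes tested 16.7% were higher and 39.7% lower at 12 h, and 26.5% and 28.0% at 48 h. The 12 h calls of PSMD9 and PSME1, both with the match, ended with centring on the genes tested. PSMB9, PSMD12 and PSME4 are among the genes with the match that rose at 48 h, and PSMG1 and PSMG2, also with it, fell. Of the 4 genes with an interferon-stimulated response element 0 were higher and 2 lower at 12 h (median -0.28), beside 5 and 7 of the 31 without it (median 0.03). At 48 h 3 of the 4 were higher (PSMA4, PSMB4 and PSMB10, median 0.23), beside 12 of the 31 (median 0.13), and PSMG4, which has the same 10 letters as PSMB10, had no call. Of the 6 tested genes with a gamma-activated site 1 was higher and 2 lower at 12 h (median -0.01), beside 4 and 7 of the 29 without it (median -0.07). At 48 h 3 of these 6 were higher and 1 lower (median 0.21), beside 12 and 2 of the 29 (median 0.13).

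The lists that follow are read against all genes tested, of which 16.7% were higher and 39.7% lower at 12 h, and 26.5% higher and 28.0% lower at 48 h, with medians of -0.16 and -0.02. Of 12 partners of the proteasome with other symbols, 2 were higher and 1 lower at 12 h (median 0.02), and 6 were higher and 1 lower at 48 h (median 0.18), so that the 12 h share of higher genes was that of all genes. UBR4, a ubiquitin ligase that associates with proteasomes, rose by 0.68 ± 0.07 at 12 h (adjusted p = 8.1e-06) and 1.02 ± 0.07 at 48 h (adjusted p = 2.4e-07). AKIRIN2, which carries proteasomes into the nucleus, rose by 0.36 ± 0.13 and 0.63 ± 0.13. PAAF1, an assembly chaperone of the cap base, rose by 0.67 ± 0.09 at 48 h. ECPAS, an adaptor of the cap, fell by 0.25 at 12 h. With centring on the genes tested the 12 h counts were 4 higher and 0 lower, and those at 48 h 6 and 0.

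The list on NFE2L1 and its control held 7 measured genes, namely NFE2L1, NFE2L2, NFE2L3, NGLY1, MAFF, MAFG and BACH1. Of these, 4 were higher and 2 lower at 12 h (median 0.29), and 4 higher and 1 lower at 48 h (median 0.26). Of all genes 16.7% were higher and 39.7% lower at 12 h, and 26.5% and 28.0% at 48 h. The 4 higher at 12 h were NGLY1, MAFF, MAFG and BACH1 (0.63 ± 0.09). NFE2L1 itself fell from 10.05 ± 0.15 (SD, n = 3) to 9.27 ± 0.08 at 12 h, a change of -0.78 ± 0.11 (adjusted p = 9.8e-05). At 48 h NFE2L1 had no call (-0.08 ± 0.11, adjusted p = 0.58). The small MAF proteins are its DNA-binding partners, and MAFF rose by 3.64 ± 0.08 and 2.21 ± 0.08, a 12.5-fold and a 4.62-fold rise, and MAFG by 1.22 ± 0.10 and 0.81 ± 0.10. NFE2L2, which reads the same element, was lower at both times, at -0.40 ± 0.09 at 12 h (adjusted p = 0.0021) and -0.70 ± 0.09 at 48 h (adjusted p = 3.6e-05). In vehicle between the times all 7 were higher (median 0.60, against 23.4% of all genes higher and a median of -0.06), while the median of the 41 proteasome genes was -0.26.

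Of 13 genes of ubiquitin supply, shuttling and the p97 unfoldase, 5 were higher and 5 lower at 12 h (7 and 3 with centring on the genes tested), and 7 were higher and 0 lower at 48 h by limma. The medians were 0.16 and 0.34, beside -0.16 and -0.02 over all genes. The share lower at 12 h was close to the 39.7% of all genes. SQSTM1, an autophagy receptor for ubiquitinated cargo, rose by 1.28 ± 0.09 at 12 h and 0.78 ± 0.09 at 48 h. UBA1, the main ubiquitin-activating enzyme, fell by 0.70 at 12 h and rose by 0.36 ± 0.10 at 48 h (adjusted p = 0.0077). The shuttle factor UBQLN4 fell by 0.69 at 12 h and had no call at 48 h (-0.04 ± 0.09). At 48 h VCP, which is p97, rose by 0.52 ± 0.08 and its cofactor UFD1 by 0.67 ± 0.07.

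Peptides cut by the proteasome are carried by TAP into the endoplasmic reticulum for MHC class I, and of 13 genes of that route and of interferon factors, 1 was higher and 3 lower at 12 h (4 and 2 with centring on the genes tested) and 6 were higher and 3 lower at 48 h. The medians were -0.02 and 0.22, beside -0.16 and -0.02 over all genes, and at 48 h 28.0% of all genes were lower. TAP2 rose by 0.48 ± 0.11 and 1.11 ± 0.11, and TAP1, which shares the PSMB8 and PSMB9 locus, by 0.60 ± 0.09 at 48 h. TAPBP, the loading chaperone, fell by 0.81 and 0.73, and ERAP2, which trims the peptides, by 0.98 at 12 h. At 48 h TAP1, TAP2, PSMB9 and PSMB10 were higher in the same cultures in which PSMB8 and TAPBP were lower. B2M (-0.27 ± 0.06) and ERAP2 (-0.21 ± 0.06) were the other lower genes of the list at 48 h. The other higher ones were IRF1, HLA-C, HLA-E and HLA-F.

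The COP9 signalosome resembles the cap lid in its build and removes NEDD8 from cullin ligases. Of its 10 genes 0 were higher and 4 lower at 12 h by limma (1 and 1 with centring on the genes tested), and 3 were higher and 5 lower at 48 h, with medians of -0.25 and -0.15. The share lower at 12 h was that of all genes, 39.7%. COPS3 fell by 0.56 and 0.49, COPS2 by 0.60 at 48 h, and COPS9 by 0.33 at 12 h, and COPS7A fell by 0.32 at 12 h and rose by 0.48 ± 0.08 at 48 h. Of the 6 lid genes of the proteasome 4 were higher at 48 h and 0 lower. The difference between the lid and the signalosome was not tested.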

How the data were processed

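Each deposited file holds 1 log2 signal for every probe set, computed by the authors with GCRMA (version not stated), per the submitters' processing notes, from biotin-labelled cRNA on Affymetrix arrays. They were used as deposited. Symbols came from the platform annotation (41091 probe sets with 1 symbol, 1801 with several, 11777 with none). 1 limma fit (limma 3.58.1, R 4.3.3, lmFit and eBayes) of the 4 group means over 12 arrays gave 4 two-sided comparisons, adjusted by Benjamini-Hochberg over 10683 genes. An exact permutation test of 3 against 3 arrays cannot go below 0.1, so limma's calls draw on the variance shared among genes. The number of arrays limits the precision. The script was tested on simulated data. All 41 tested genes are named. Of each pathway list the text names up to 3 genes past the threshold at each time with the largest change. A few other list genes and values are given beside them, chosen after the results were seen. The genes, classes, lists and motifs were chosen with earlier results of these data known. No pairing by replicate number was seen: deviations of same-numbered arrays of different groups correlated at -0.34 to 0.16, with 3 of 18 pairs over 0.1. Those of differently numbered arrays correlated at -0.16 to 0.31. With 3 arrays per group this cannot show that the cultures were unpaired. Alternatives were the scaling, the filter, the mean over probe sets, a prior trend, the replicate block, the groups in the fit and leaving out each array. Centring on the genes tested was added after the data were seen.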

Additional observations from a re-analysis of the deposited data

Results flagged for a closer look

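The effect of CdCl differed between 12 h and 48 h, by the test of the difference (48 h effect minus 12 h effect, limma, adjusted p under 0.05), in 19 of the 41 genes. The 48 h effect was above the 12 h effect in 18 (43.9%, against 27.0% of all genes tested) and below it in 1 (2.44%, against 13.0%). In the core the genes that differed were PSMA4 (0.29), PSMA5 (0.36), PSMA7 (0.51), PSMB4 (0.34), PSMB6 (0.44) and PSMB7 (0.32), and among the inducible subunits PSMB9 (0.93) and PSMB10 (1.19). In the cap they were PSMC4 (0.34), PSMD1 (0.33), PSMD2 (0.49), PSMD3 (0.99) and PSMD8 (0.49). Among assembly factors they were PSMD5 (0.33), PSMD9 (0.83) and PSMG4 (0.41), and among activators and the inhibitor PSME3 (0.40), PSME4 (-0.81) and PSMF1 (0.28). With centring on the genes tested, PSMA4, PSMA5, PSMB4, PSMB7, PSMC4, PSMD1, PSMD5, PSMD8, PSME3 and PSMF1 and their values of 0.15 to 0.37 no longer passed, and all genes tested had a median difference of 0.13 without it. Without single arrays, the differences of PSMA4, PSMB7, PSMD1, PSMD5, PSMD8, PSME3 and PSMF1 also missed the threshold, with adjusted p between 0.050 and 0.078.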

How the results depend on the processing

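The mean over all probe sets of a gene gave 8 genes higher at 12 h in place of 5, 5 lower at 48 h in place of 3, and 3 whose 48 h effect was below the 12 h effect in place of 1. It also turned the 48 h change of PSMA5 to -0.03 (adjusted p = 0.75) and of PSMC2 to -0.42 (adjusted p = 0.0018), their differences between the times to -0.17 (adjusted p = 0.18) and -0.47 (adjusted p = 0.011), and the vehicle change of PSMA5 to 0.42 (adjusted p = 2.1e-04). Centring on the genes tested, added after seeing the data, gave 13 higher and 7 lower at 12 h, and 8 above and 2 below for the difference between the times. A prior trend in eBayes gave 2 below for that difference. The cause was not tested. Leaving out each array in turn gave 5 to 7 higher and 11 to 12 lower at 12 h, 17 to 18 higher and 3 to 4 lower at 48 h, 14 to 18 above and 1 to 2 below for the difference, and 3 to 4 higher and 23 to 26 lower in vehicle. With the replicate number as a block the counts were 5 and 11 at 12 h, 18 and 3 at 48 h, 18 and 1 for the difference and 3 and 25 in vehicle. The block ended the difference of PSMF1 (adjusted p = 0.057) and the vehicle fall of PSMG1 (adjusted p = 0.062) and gave one for PSMG3 (adjusted p = 0.043). Median centring over all probe sets also ended the difference of PSMF1 (0.25, adjusted p = 0.072), that of PSMA4 (0.26, adjusted p = 0.054) and the 48 h rise of PSMA4 (0.17, adjusted p = 0.055), and quantile normalization ended the difference of PSMF1 (0.23, adjusted p = 0.069). The vehicle falls of PSMB9, PSMC6 and PSMG1 also ended without single control arrays. The other counts kept within 1.5 times of the values given under median centring, quantile normalization, both filters and fits of the groups compared alone. Detection calls were not used, so weak signals such as PSMA8 have no stated background.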
